A study of Mus musculus with 4 samples.

Results

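Myosin heavy chain genes were followed in differentiating C2C12 cells with and without knockdown of LSD1. The genes are the embryonic (Myh3), perinatal (Myh8), fast (Myh2, Myh1 and Myh4) and slow (Myh7 and Myh7b) chains of the sarcomere and the non-muscle chains Myh9 and Myh10. Every probe set that the array annotation assigns to exactly 1 of these 9 genes was taken, which gave 17 of the 45101 probe sets on the array. This rule used no measured value, but the 9 genes were chosen with earlier results of these data known. C2C12 is an immortalised line of mouse myoblasts that fuses into myotubes when serum is lowered. The shControl group (2 arrays) carried a plasmid with a non-targeting short hairpin RNA, and the shLSD1 group (2 arrays) carried a plasmid with a hairpin directed against LSD1, the histone demethylase encoded by Kdm1a. In both groups the plasmid was stably selected and cells were grown with 750 µg/mL hygromycin B and 10% fetal bovine serum. RNA was collected 48 hours after induction in 2% horse serum, and the medium held 25 mM glucose before and after induction. The labels do not say whether the selected cells were a pool or a clone, and they name a single selected line per hairpin, so selection and knockdown cannot be told apart. The comparison asks how myosin heavy chain transcripts respond to loss of LSD1 as the cells differentiate.

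Myosin heavy chains are the motor subunits of class II myosins. Each chain joins an actin-binding ATPase head to a long coiled-coil tail, and the tails assemble into filaments. Skeletal muscle changes its heavy chain as it matures, from embryonic and perinatal chains to the adult slow and fast chains, and the isoform sets how fast a fibre shortens. Non-muscle chains drive cell division, migration and cortical tension in most cell types, myoblasts included.

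The embryonic, adult fast and perinatal genes lie next to each other in the genome, in the order Myh3, Myh2, Myh1, Myh4 and Myh8, while Myh7 and Myh7b lie elsewhere. Upstream windows of 250 bases before an annotated start were found for all 9 genes in RefSeq sequence of build GRCm38.p6. The 6 shown here are the adult fast and perinatal genes of the cluster, which differed in their change, the slow gene Myh7, and the non-muscle gene Myh10, which moved the other way. Capitals mark matches on either strand to CANCTG (an E-box of the type bound by MyoD), to CATTCC (the MCAT element bound by TEAD factors), to TATAAA (the core promoter box), to GGGCGG (the site of Sp factors), to the MEF2 box and to the CArG box.
Myh8, chr11:67276874-67277123, plus strand: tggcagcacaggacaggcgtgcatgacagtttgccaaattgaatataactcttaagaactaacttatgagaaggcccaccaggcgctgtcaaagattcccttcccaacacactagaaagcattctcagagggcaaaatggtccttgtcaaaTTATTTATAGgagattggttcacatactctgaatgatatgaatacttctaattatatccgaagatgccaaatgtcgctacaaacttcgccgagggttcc
Myh4, chr11:67237562-67237811, plus strand: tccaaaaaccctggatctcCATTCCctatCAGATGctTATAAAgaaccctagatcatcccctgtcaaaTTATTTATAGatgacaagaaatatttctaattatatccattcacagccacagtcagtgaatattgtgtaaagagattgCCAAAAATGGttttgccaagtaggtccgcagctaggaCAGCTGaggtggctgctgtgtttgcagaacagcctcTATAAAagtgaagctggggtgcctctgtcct
Myh1, chr11:67199852-67200101, plus strand: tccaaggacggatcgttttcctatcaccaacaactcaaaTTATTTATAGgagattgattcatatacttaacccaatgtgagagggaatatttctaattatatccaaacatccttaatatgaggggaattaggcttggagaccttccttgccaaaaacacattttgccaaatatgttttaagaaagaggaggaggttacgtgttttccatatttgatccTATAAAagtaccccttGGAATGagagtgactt
Myh2, chr11:67170777-67171026, plus strand: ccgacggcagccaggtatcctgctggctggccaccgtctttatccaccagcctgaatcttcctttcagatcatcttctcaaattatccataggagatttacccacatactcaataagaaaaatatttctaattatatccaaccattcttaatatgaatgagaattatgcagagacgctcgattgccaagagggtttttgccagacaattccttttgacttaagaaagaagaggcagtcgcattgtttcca
Myh7, chr14:54994627-54994876, minus strand: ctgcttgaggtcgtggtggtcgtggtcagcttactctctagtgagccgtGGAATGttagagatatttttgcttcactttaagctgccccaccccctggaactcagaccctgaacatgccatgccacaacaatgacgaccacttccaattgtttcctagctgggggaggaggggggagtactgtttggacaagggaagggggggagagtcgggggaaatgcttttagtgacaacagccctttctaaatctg
Myh10, chr11:68691665-68691914, plus strand: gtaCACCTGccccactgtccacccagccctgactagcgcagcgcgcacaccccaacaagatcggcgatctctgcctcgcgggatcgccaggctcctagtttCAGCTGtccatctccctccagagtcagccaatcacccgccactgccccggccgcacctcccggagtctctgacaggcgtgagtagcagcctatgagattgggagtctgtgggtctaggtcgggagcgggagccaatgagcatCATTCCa
The windows of Myh8, Myh4 and Myh1 each held the same match to the MEF2 box, TTATTTATAG, which began 99, 182 and 211 bases before the start. A MEF2 box was present in 2.92% of 32851 mouse promoter windows of this length. The windows of Myh3 and Myh7, which fell, held no MEF2 box, while Myh1, which has it, did not pass. A link between this box and the changes was not tested. The shared match also contains a TATAAA match on the opposite strand, so these are not separate elements. In the Myh2 window none of the 6 motifs was found, which says only that these letters are not in those 250 bases. The Myh4 window also held a CArG box, present in 1.47% of all windows, and 2 matches to CANCTG, which 44.8% of windows hold. The Myh7 window, which precedes the outer of its annotated starts, held a CATTCC match (12.6% of windows). The window before the other Myh7 start, not shown, held no CATTCC match and 1 CANCTG match, CAGGTG. The Myh10 window held 2 CANCTG matches and 1 CATTCC match. The Myh10 window had a GC content of 62.8%, against 36.0% to 42.4% in the 4 windows of the adult fast and perinatal genes and a median of 52.4% over all windows.

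The arrays were alike in their technical values. Median signals lay between 67.3 and 69.7, and the signal ratio of 3' to 5' control probe sets lay between 0.755 and 0.783 for Gapdh and between 1.16 and 1.19 for Actb. The 2 Kdm1a probe sets fell to 17.7% and 21.3% of control (limma adjusted p = 1.56e-05 and 9.16e-06). The cells are labelled as differentiating myoblasts, and the differentiation factor gene Myog was bright on all 4 arrays, with signals of 19611 and 19911 in shControl and 12044 and 14013 in shLSD1. Probe sets with a mean log2 signal above the median of the array (a signal of 65.6) were tested with limma across 22490 probe sets, with Benjamini-Hochberg adjustment. Of the 17 myosin probe sets, 14 passed this filter, at least 1 for each of the 9 genes. Nothing in the labels says that the arrays of a group are separate cultures, so the p-values cover a spread that may be only technical.

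Of the 14 tested myosin probe sets, 4 fell, 1 rose and 9 did not pass the threshold. Among all tested probe sets 5.06% fell and 6.21% rose (11.3% in either direction). Those that fell represent the genes Myh8, Myh7, Myh4 and Myh3, all of them sarcomeric, and the riser was the non-muscle gene Myh10. The median log2 fold change of the 14 was -0.17, against 0.0028 over all tested probe sets. Both shLSD1 arrays lay below both shControl arrays for 9 of the 14 and above them for 2, while among all tested probe sets these shares were 27.3% and 28.4%. A fit that leaves out an array keeps 1 array in that group, so the replicate spread of a probe set comes from the other group alone. Without shControl replicate 1 the counts over all tested probe sets dropped to 376 that fell and 521 that rose, from 1139 and 1396, and without shControl replicate 2 to 392 and 541. The same 4 falls among the myosin genes passed without either of these arrays, but the rise of Myh10 was lost without shControl replicate 2. With no intensity trend in the variance model, Myh8 and Myh7 still passed (limma adjusted p = 0.0318 for each), while Myh3 (0.0844), Myh4 (0.0879) and Myh10 (0.120) did not.

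**Figure D1:**
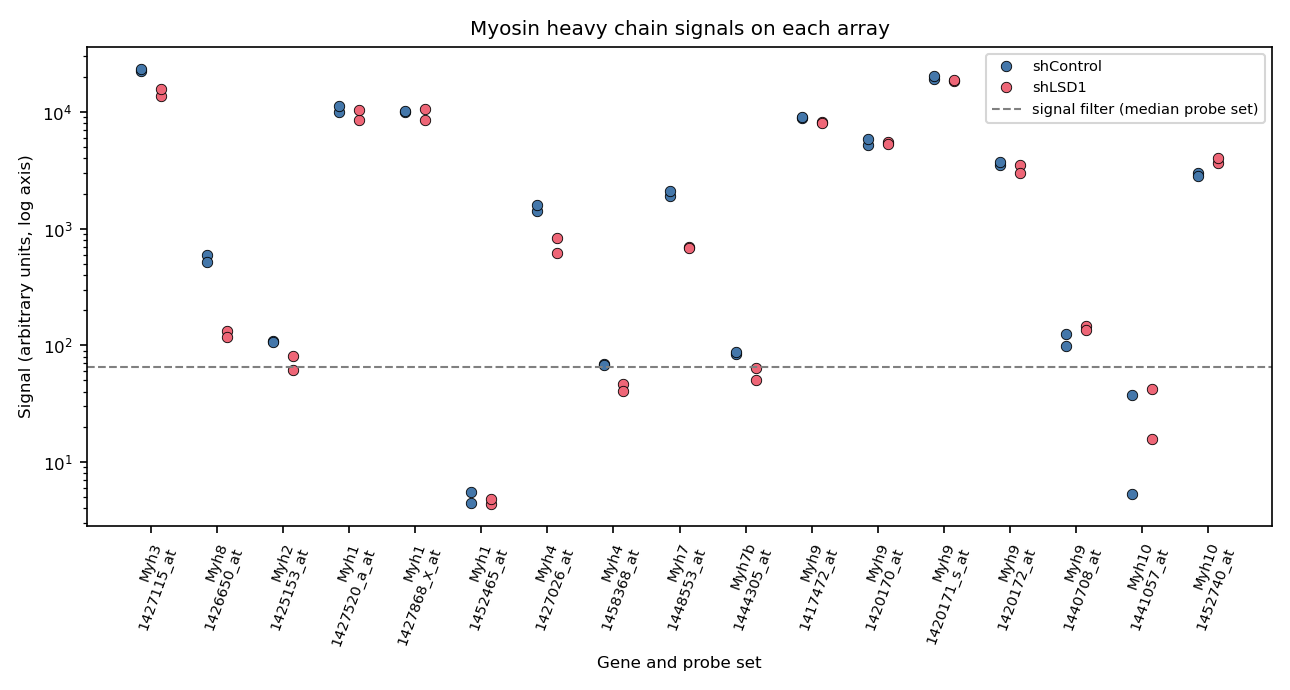
Signal of each of the 17 myosin heavy chain probe sets on the 4 arrays, in arbitrary units on a log axis, with 1 point per array. The shLSD1 points of Myh8 and Myh7 lie far below the shControl points, those of Myh1 overlap them, and those of Myh10 1452740_at lie above. The dashed line is the signal filter, and heights cannot be compared between probe sets.

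The developmental chains both fell, by different amounts. Myh3, the embryonic chain, which is the first to appear as myoblasts fuse, had signals of 22332 and 23513 in shControl and 13605 and 15818 in shLSD1. Both shLSD1 arrays were lower, and the groups did not overlap. Its log2 fold change of -0.64 (SE 0.07, n = 2 per group, limma adjusted p = 9.00e-04) corresponds to 64.0% of control (95% interval 57.5% to 71.3%).

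Myh8, the perinatal chain that follows it, had signals of 592 and 514 in shControl and 132 and 118 in shLSD1. The spread between replicates was small beside the gap. Its log2 fold change was -2.15 (SE 0.15, limma adjusted p = 1.54e-04), or 22.6% of control (95% interval 17.8% to 28.6%). Only 12 of the 22490 tested probe sets had a larger fall, so Myh8 stood 13th from the bottom. In bulk RNA, fewer cells that express a gene and less RNA of it per cell cannot be told apart.

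The adult fast chains did not move alike in size. Myh4 encodes the IIb chain of the fastest fibres. Its brighter probe set, 1427026_at, had signals of 1409 and 1593 in shControl and 839 and 615 in shLSD1. The shLSD1 arrays were both lower, with more spread between them than between the controls. The log2 fold change was -1.06 (SE 0.14, limma adjusted p = 2.47e-03), or 47.9% of control (95% interval 38.4% to 59.8%). The other Myh4 probe set, 1458368_at, lay below the filter on average and was not tested, with signals of 68.8 and 68.1 in shControl and 46.2 and 40.1 in shLSD1, again with no overlap.

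Myh1, the IIx chain, was bright on every array. Its probe set 1427520_a_at had signals of 10064 and 11264 in shControl and 8591 and 10392 in shLSD1, and 1427868_x_at had 10057 and 10263 in shControl and 8544 and 10581 in shLSD1. The groups overlapped on both. Their log2 fold changes were -0.17 (95% interval -0.38 to 0.03, limma adjusted p = 0.267) and -0.10 (95% interval -0.29 to 0.10, limma adjusted p = 0.546). These intervals reach down to 77.1% and 81.6% of control. The estimates depended on shLSD1 replicate 2, the higher of the pair. Without it they were -0.31 and -0.25, in a fit with 1 shLSD1 array and so with no spread measured in that group. The remaining Myh1 probe set, 1452465_at, was near background, between 4.33 and 5.55 on the 4 arrays, and was not tested.

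Myh2, the IIa chain of fast oxidative fibres, was dim. Its signals were 109 and 107 in shControl and 80.2 and 60.8 in shLSD1, the last below the filter value. The log2 fold change was -0.63 (SE 0.26, 95% interval -1.23 to -0.03), with an unadjusted p of 0.0426 and a limma adjusted p of 0.173. Its point estimate is close to that of Myh3, but the standard error is 0.26 against 0.07.

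The slow chain Myh7 had the second largest fall of the set. Myh7 is the chain of slow skeletal fibres and of the ventricle. Its probe set 1448553_at had signals of 1910 and 2085 in shControl and 692 and 676 in shLSD1. The shLSD1 arrays nearly coincided, far below the controls. The log2 fold change was -1.55 (SE 0.08, limma adjusted p = 3.17e-05), or 34.3% of control (95% interval 30.3% to 38.8%). A further probe set, 1448554_s_at, matches Myh7 and its cardiac neighbour Myh6 and is therefore outside the 17. It gave -1.52 (SE 0.12, limma adjusted p = 2.66e-04), with signals of 677 and 659 in shControl and 219 and 249 in shLSD1. The brighter probe set of Myh6 alone stayed between 1.23 and 24.8 and was not tested.

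Myh7b, a chain related to the slow type that is found in slow-tonic fibres, was dim, with signals of 83.3 and 87.8 in shControl and 64.3 and 50.4 in shLSD1. Both shLSD1 arrays were lower and both lay under the filter value. Its log2 fold change was -0.59 (SE 0.29, 95% interval -1.25 to 0.07, limma adjusted p = 0.244). Myh2 and Myh7b were the tested myosin probe sets nearest the filter, and their intervals were the widest.

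**Figure D2:**
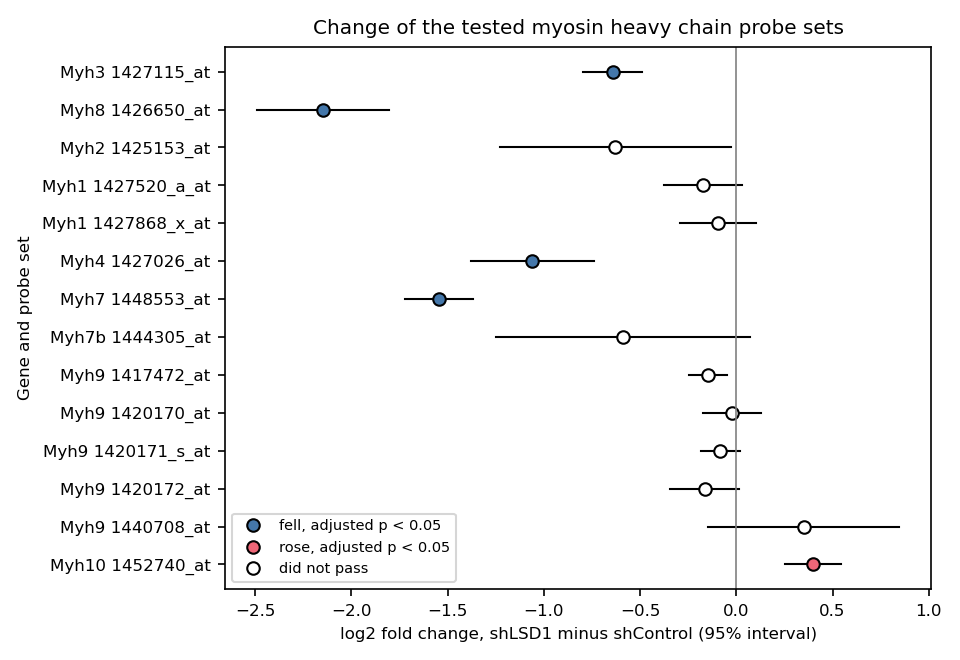
Log2 fold change, shLSD1 minus shControl, of the 14 tested probe sets, with 95% intervals from limma. Filled points passed the adjusted threshold: Myh8, Myh7, Myh4 and Myh3 lie to the left of 0 and Myh10 to the right, and the intervals of Myh2 and Myh7b are the widest.

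Of the non-muscle chains, Myh10 rose and Myh9 did not pass the test. Myh9 encodes the heavy chain of non-muscle myosin IIA, which powers contraction of stress fibres. All 5 of its probe sets were tested, and 0 passed (1 had an unadjusted limma p under 0.05). Probe set 1417472_at had signals of 8957 and 9061 in shControl and 8201 and 8059 in shLSD1. The groups did not overlap, yet the gap was small. The log2 fold change was -0.15 (SE 0.04, 95% interval -0.25 to -0.05, unadjusted p = 8.22e-03, limma adjusted p = 0.0632), or 90.2% of control. It passed with median centring (limma adjusted p = 0.0424) and with the stricter filter (0.0488), and measured -0.16 without shLSD1 replicate 1. The others measured -0.02 (1420170_at), -0.08 (1420171_s_at), -0.16 (1420172_at) and 0.35 (1440708_at), with limma adjusted p between 0.227 and 0.876. Without shLSD1 replicate 1, 1420172_at measured -0.28. Probe set 1440708_at, the dimmest of the 5, had signals of 98.6 and 124 in shControl and 146 and 136 in shLSD1, so it differs in sign from the other 4.

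Myh10 encodes the heavy chain of non-muscle myosin IIB, which acts in cytokinesis and cell shape. Its probe set 1452740_at had signals of 3008 and 2854 in shControl and 3691 and 4040 in shLSD1. Both shLSD1 arrays were higher. The log2 fold change was 0.40 (SE 0.06, limma adjusted p = 6.06e-03), or 132% of control (95% interval 119% to 146%). Without shControl replicate 2 it was 0.36 and did not pass (limma adjusted p = 0.0716). The other Myh10 probe set, 1441057_at, was below the filter, with signals of 5.35 and 37.1 in shControl and 15.8 and 42.4 in shLSD1. Averaged with it, Myh10 measured 0.64 and did not pass (limma adjusted p = 0.466).

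Whether genes of the family changed by unequal amounts was asked from 6 ratios taken within each array, which any scaling factor of the array leaves untouched. The log2 ratio of Myh8 to Myh3 was lower in shLSD1 by a difference of -1.50 (SD 0.20 in shControl and 0.27 in shLSD1, n = 2 each). The ratio of Myh7 to Myh7b shifted by -0.96 (SD 0.04 and 0.23) and that of Myh4 to Myh1 by -0.89 (SD 0.01 and 0.51). The ratio of Myh9 to Myh10 shifted by -0.55 (SD 0.07 and 0.11), that of Myh3 to Myh9 by -0.50 (SD 0.04 and 0.17) and that of Myh4 to Myh2 by -0.43 (SD 0.14 and 0.03). In each of the 6 the groups did not overlap. The sign of a ratio depends on which gene is written first, so the shared direction is not a result. The pairs were chosen with earlier results of these data known. Among single tested probe sets, 27.3% had both shLSD1 arrays below both shControl arrays and 28.4% above, and the share over other ratios was not measured. Myh7b lay under the filter signal of 65.6 on both shLSD1 arrays (64.3 and 50.4) and Myh2 on 1 of them (60.8), so the ratios against Myh7b and Myh2 rest on signals near or under the filter in shLSD1 and are given as values only. With 2 arrays against 2, the exact two-sided permutation p was 0.333 for all 6, also after adjustment over the 6, and this is the smallest p the design allows. The differences kept their sign with quantile normalization and with log2(signal + 32), and also when all probe sets of a gene above the filter were averaged. Leaving out an array could not turn the sign, because the groups did not overlap.

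**Figure D3:**
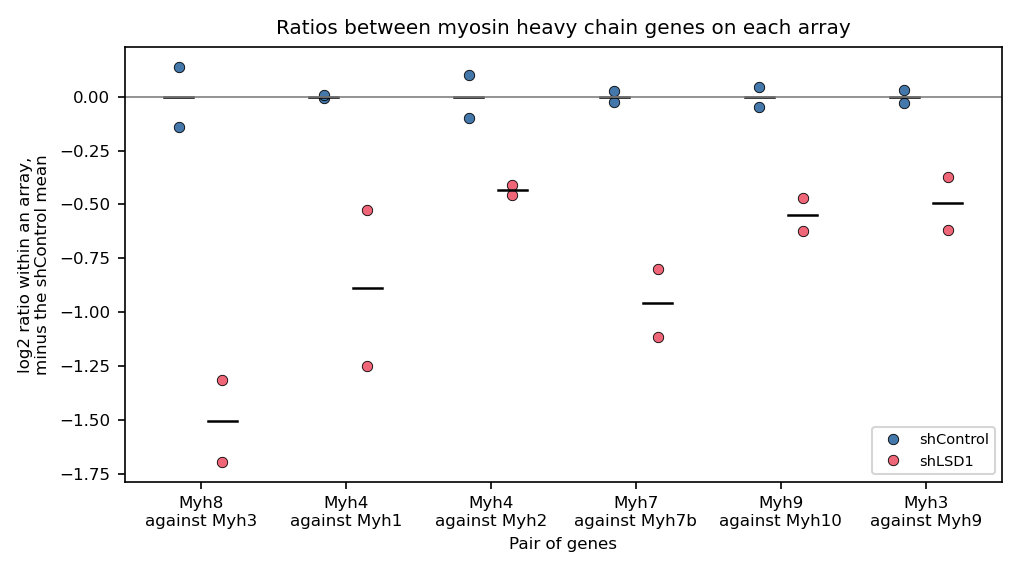
Log2 ratio of the signals of 6 pairs of myosin heavy chain genes on each array, minus the shControl mean of that ratio, with 1 point per array and the group mean as a bar. In every pair the shLSD1 points lie below the shControl points, with the largest shift for Myh8 against Myh3 at -1.50. The direction depends on which gene of a pair is written first.

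Genes beside the cluster were read for their own change. Adprm and Sco1, the pair of annotated genes before Myh3, measured 0.16 (limma adjusted p = 0.476) and -0.11 (limma adjusted p = 0.710). The non-coding gene 2310065F04Rik, also called linc-Myh, lies between Myh3 and Myh2 and was not tested, with signals of 34.8 and 23.0 in shControl and 26.8 and 59.4 in shLSD1. A probe set assigned to the non-coding gene Myhas, between Myh1 and Myh4, measured -0.08 (SE 0.16, limma adjusted p = 0.801). The annotation gives that probe set the same source sequence as 1427868_x_at of Myh1, so Myhas and Myh1 cannot be told apart there. Within the cluster, falls that passed were at its ends and at Myh4 (Myh3, Myh4 and Myh8), and Myh2 and Myh1 between them did not pass.

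The other genes of the myosin system gave mixed counts. Each listed gene was represented by 1 probe set. Among all tested probe sets 5.06% fell and 6.21% rose, and in a fit with 1 probe set per gene 744 of 10924 fell and 915 rose. These background values stand beside the counts of every list below. Of 15 tested genes for myosin folding and thick filament assembly, 9 fell, 1 rose and 5 did not pass, with a median of -0.41. Unc45b, the muscle chaperone that folds the myosin head, fell by 0.77 (SE 0.07, limma adjusted p = 5.23e-04). Smyd1, a methyltransferase that works with it, fell by 0.76, the M-band gene Myom1 by 0.80 and Mybph, a myosin-binding protein gene, by 0.48. The gene that rose was Hsp90aa1, at 0.18 (limma adjusted p = 0.0198), a partner chaperone named here after its value was seen. Probe sets of Smyd1 differed: 2 others also fell, and 2 more measured 0.04 and 0.14.

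Of 4 tested sarcomeric light chain genes, 2 fell and 1 rose. Myl4, the embryonic and atrial essential light chain, fell by 0.80 (limma adjusted p = 2.89e-04) and Mylpf, the fast regulatory light chain, by 0.27. Myl2, the slow regulatory light chain, rose by 0.58 (limma adjusted p = 0.0174), the reverse of Myh7, with which it pairs in slow muscle. Myl1, the fast essential light chain, measured -0.08 (limma adjusted p = 0.407), and -0.16 without shLSD1 replicate 2. Of 7 tested genes for non-muscle and smooth muscle light chains and for light chain kinases, 2 rose and 2 fell. Those that rose were light chains, Myl9 at 0.53 and Myl12b at 0.43, and those that fell were kinases, Mylk4 at -1.74 and Mylk at -0.67. Myl12b encodes a regulatory light chain that binds non-muscle heavy chains.

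Fibre-type partners of the fast and the slow chains fell in equal counts. Of 9 tested fast partners, 7 fell and 2 did not pass, with a median of -0.69. The troponin genes Tnnt3, Tnni2 and Tnnc2 fell by 0.83, 0.76 and 0.49 and the calsequestrin gene Casq1 by 1.18. Of 9 tested slow partners, 7 fell and 2 did not pass, with a median of -0.67. Ankrd2, a stretch-responsive gene, fell by 1.42, Csrp3 by 1.12, Casq2 by 0.83 and myoglobin (Mb) by 0.67. The slow chain Myh7 fell more than each of these slow partners in its point estimate, and Myh1 less than each of the named fast partners. The named partners were picked among those that passed, which Myh1 did not. Of the 2 fast partners that did not pass, Actn3 measured 0.0036, a smaller change than that of Myh1, and Pvalb -0.31. These differences between genes were not tested.

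Of 25 tested regulators of myosin heavy chain genes, 7 fell, 2 rose and 16 did not pass, with a median of -0.10. Over all genes, 744 of 10924 fell and 915 rose in the fit with 1 probe set per gene. Myog, which activates the terminal muscle programme, fell by 0.61 (limma adjusted p = 1.06e-03). Mef2c, whose protein binds the MEF2 box, fell by 0.88 (limma adjusted p = 3.33e-03), and its other 4 probe sets measured -0.94 to -0.64 and also fell. Nfix, which acts in the switch from embryonic to fetal muscle, fell by 0.51. Myf5, a myoblast determination factor, rose by 1.28 and Eya1, a transcriptional cofactor gene, by 1.17. Myod1 measured -0.17 (SE 0.10, limma adjusted p = 0.347). Of 16 tested partners of non-muscle myosin, 4 rose and 1 fell, with a median of 0.04. The cytokinesis genes Anln and Ect2 rose by 0.58 and 0.46 and the small GTPase gene Rhoc by 0.27, while Tpm1 fell by 0.24. Other tested probe sets of Anln (0.60), Rhoc (0.16) and Tpm1 (-0.68, -0.19 and 0.27) did not pass. The calls of Mylk, Myl2, Mylpf, Ect2, Rhoc and Tpm1 were lost without either shControl array, and all of these except that of Ect2 with no filter on dim probe sets. With no intensity trend, 24 of the 28 called genes among those named from the lists lost their calls, and 4 (Tnnt3, Mylk4, Myf5 and Ankrd2) kept them.

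**Figure D4:**
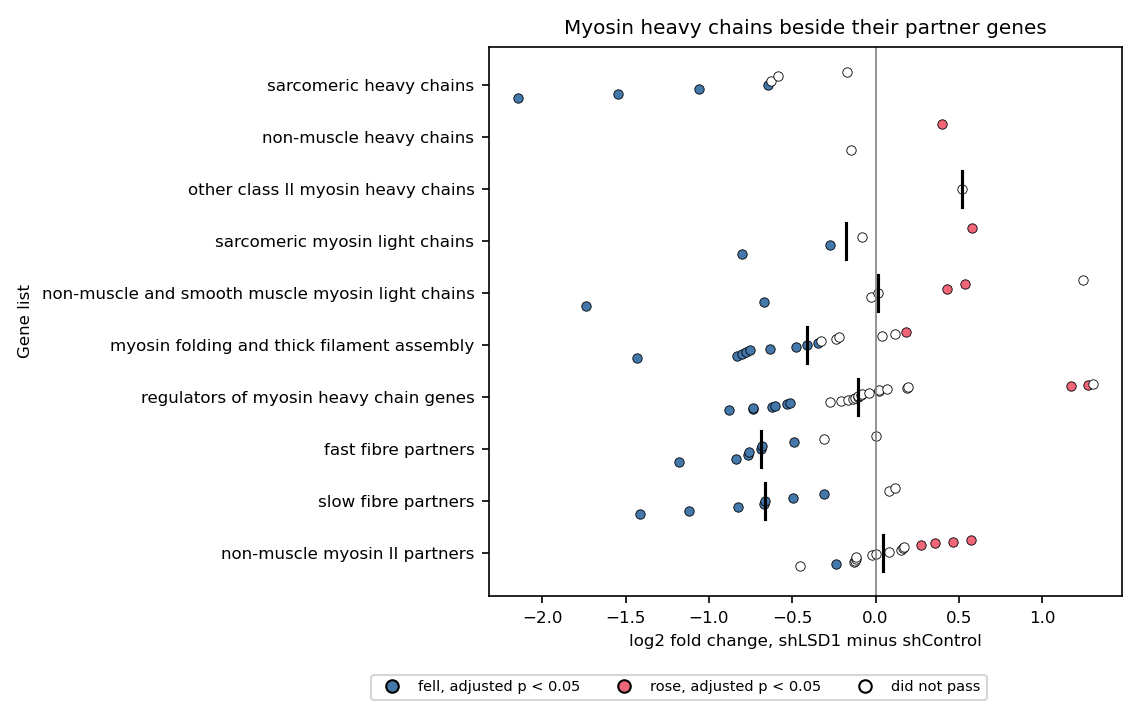
Log2 fold change, shLSD1 minus shControl, of the tested genes of each list, with 1 point per gene and its median as a bar for the partner lists. Most points of the fast and slow fibre partners lie to the left of 0 (medians -0.69 and -0.67), those of the non-muscle myosin partners lie around it (median 0.04), and the sarcomeric heavy chains spread from -2.15 to -0.17.

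Lists of cell state markers were measured beside the myosin genes, with 1 probe set for each gene. In the fit with 1 probe set per gene, 744 of 10924 tested genes fell and 915 rose. Summed signals cover every listed gene with a probe set, tested or not, and bright probe sets weigh most in them. Of 10 tested myotube markers, 7 fell and 3 did not pass, and their summed signal was 94697 and 92045 in shControl and 69257 and 76882 in shLSD1. Of 8 tested markers of myoblasts and reserve cells, 3 rose and 5 did not pass, with a median log2 fold change of 0.07 and summed signals of 8559 and 8346 in shControl and 10391 and 9817 in shLSD1. Most of that gap in the sum was Myf5 alone, with signals of 1040 and 1030 in shControl and 2403 and 2614 in shLSD1. Cd34 and Notch3 also rose, while the satellite cell gene Pax7 measured -0.65 (limma adjusted p = 0.0830) and did not pass. The part of these shifts in the falls of the myosin genes was not tested. Of 5 tested smooth muscle and myofibroblast markers, 2 fell and 3 did not pass. Over all 8 listed genes with a probe set, summed signals were 13466 and 13206 in shControl and 7872 and 11311 in shLSD1. Among cardiac markers, 2 of 4 tested fell (Tnnt2 and Actc1, which embryonic skeletal muscle also expresses). Over all 8 listed cardiac genes with a probe set, the sums were 51942 and 52131 in shControl and 39953 and 40544 in shLSD1. Myh11 and Myh6, the smooth muscle and cardiac heavy chains, were below the filter. The 1 tested adipocyte marker, Pparg, did not pass. Over the 4 listed adipocyte genes with a probe set, summed signals were 137 to 152 in shControl and 124 to 134 in shLSD1. The 2 tested osteoblast and chondrocyte markers, Sp7 and Sox9, did not pass. Over the 6 genes of this list with a probe set, summed signals were 505 and 611 in shControl and 721 and 695 in shLSD1. All 6 leukocyte and endothelial markers were below the filter (summed signals 188 and 226 in shControl, 145 and 208 in shLSD1).

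The genes outside the family whose change over the 4 arrays was most like that of Myh8, Myh7 or Myh9 were found among 10915 tested genes. Likeness was the root mean square difference of log2 signals, each taken relative to the shControl mean. For Myh8 the nearest were Sfrp2, a secreted Wnt antagonist (0.18), the kinase gene Camk1g (0.27), and Fmod and Aspn, small proteoglycans of the matrix (0.28 each). Sfrp2 fell by 2.33, with signals of 287 and 306 in shControl and 66.8 and 52.1 in shLSD1. For Myh7 the nearest were Itgb1bp2, the muscle gene for melusin (0.06), Ctla2b (0.06), the cannabinoid receptor gene Cnr1 (0.08) and Mn1 (0.09). Itgb1bp2 fell by 1.49, from 4311 and 4443 to 1528 and 1582. For Myh9 the nearest were Med28, Kti12, Mterf3 and Nme1 (0.0026 to 0.0070), and 0 of these 4 passed the threshold by limma (3 of 4 had an unadjusted p under 0.05). Genes picked by likeness share the change of the gene they were matched to, so their changes follow from the choice.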

How the data were processed

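The 4 arrays were grouped by their labels. The values deposited by the authors are linear intensities, 1 per probe set, made with MAS5 and Affymetrix Expression Console per the submitters' processing notes, with versions not given in the sources used here. All arrays had a 2% trimmed mean of 500.003, so each had been scaled by 1 factor. In log2 units such signals scatter widely near background. Per the labels, labelling started from 250 ng of total RNA.

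Signals under 1 were set to 1 before log2. The annotation gives 34945 probe sets a single gene symbol, 932 more than 1 symbol and 9160 none, and 64 controls were left out. A probe set ending in _s_at or _x_at can bind related transcripts, and myosin heavy chains are a family of similar sequences. Probe sets with a mean log2 signal above 6.03 were tested with limma 3.58.1 in R 4.3.3 (intensity trend, 8.27 degrees of freedom), two-sided at an adjusted p of 0.05. For lists and ratios, a gene was represented by a probe set above the filter that does not end in _s_at or _x_at where there was such, then by the brightest. Genes named are all members, up to 4 passing genes per list with the smallest adjusted p, Myod1, Myog, Mef2c, Myl1, Unc45b, Kdm1a, neighbours of the cluster and the 4 nearest genes by likeness. The members, lists and tests were chosen with earlier results of these data known. The fit was repeated with 1 choice changed at a time: thresholds of 0.01 and 0.1, no intensity trend, robust variance, no filter or a stricter one (log2 8.92), 32 added before the log, arrays centred on their medians or quantile normalized, 1 probe set or the probe sets' mean per gene, the replicate number as a block, and every array dropped in turn. Figures used matplotlib 3.10.9.

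In simulated data for 22490 probe sets the fit recovered 38 of 67 changes of 0.5 on the log2 scale, 56 of 67 changes of 1 and 65 of 66 changes of 2, with 15 false calls.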

Additional observations from a re-analysis of the deposited data

How the results depend on the processing

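Myh7 passed under every alternative run, and Myh8 under all but the stricter filter, which left it untested. Without the intensity trend, 2 myosin probe sets fell and 0 rose, and 86 and 129 fell and rose over all tested probe sets. The calls of Myh3 (limma adjusted p = 0.0844), Myh4 (0.0879) and Myh10 (0.120) were lost there, as were those of 24 of the 28 called genes among those named from lists, but not that of Kdm1a. Leaving out each array in turn gave 4 to 6 falls and 0 to 1 rise among the myosin probe sets, and 376 to 1563 falls and 521 to 1676 rises over all. Over all tested probe sets, falls and rises numbered 697 and 858 with no filter, 744 and 915 with 1 probe set per gene, 477 and 562 at an adjusted p of 0.01, and 1803 and 2133 at 0.1. With the replicate number as a block, 5 myosin probe sets fell and 1 rose, the added call being Myh1 1427520_a_at (limma adjusted p = 0.0474). Deviations of same-numbered arrays correlated at 0.00058, and nothing in the labels pairs them. The shifts of the 6 ratios kept their sign with quantile normalization and with a constant added before the log. They also kept it when the probe sets of a gene above the filter were averaged, where a gene had more than 1. Median centring cannot change these shifts, and leaving out an array could not turn their sign, because the groups did not overlap. The sign of Myh1 1427868_x_at turned without shLSD1 replicate 1 (0.06), and that of Myh9 1420170_at without shControl replicate 2 (0.06) or shLSD1 replicate 2 (0.01), and neither was called in these settings. With 2 arrays per group, the 95% intervals of the dim probe sets of Myh2 (-1.23 to -0.03) and Myh7b (-1.25 to 0.07) were wide, and neither passed after adjustment.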

Other observations

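Cnn1, Mylk2 and Myh14, chosen after their values were seen, had dim probe sets whose shLSD1 signals all lay above both shControl signals. Among all tested probe sets, 28.4% had both shLSD1 arrays above both shControl arrays, and none of these picked genes was called. The kinase genes Mylk and Mylk4, of the same list as Mylk2, fell. The smooth muscle marker Cnn1, which encodes calponin, had signals of 13.7 and 12.8 in shControl and 80.6 and 167 in shLSD1. It was not tested because its mean lay under the filter. Of the 5 tested markers of its list, 2 fell (Acta2 at -0.85 and Synpo2 at -0.55), 0 rose and 3 did not pass. Mylk2, the skeletal muscle myosin light chain kinase gene, had signals of 32.1 and 84.0 in shControl and 131 and 115 in shLSD1 (log2 fold change 1.25, SE 0.43, limma adjusted p = 0.104). The non-muscle heavy chain gene Myh14 had signals of 90.7 and 106 in shControl and 123 and 161 in shLSD1 (log2 fold change 0.52, SE 0.23, limma adjusted p = 0.204).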
